A study of Mus musculus with 9 samples.

Results

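Clusterin and its lipoprotein receptor partners were taken here as 6 genes out of the 48397 gene symbols counted: Clu, Apoe, Lrp1, Lrp2, Lrp8 and Vldlr. Clu was chosen by its measured difference between the genotypes, and its values in that contrast are therefore given as a description with no test. The other 5 genes were named for their relation to clusterin, with earlier results of these data known. The RNA came from the outflow tract, the arterial pole of the heart, of mouse embryos on the C57BL/6J background, taken on embryonic day 12.5. The 4 wild-type libraries (genotype Nkx2-5+/+) were compared with 5 libraries from embryos homozygous for an allele, Nkx2-5delta-enh. This allele lacks the enhancer of the cardiac homeobox gene Nkx2-5 active in the anterior second heart field. Both groups share the strain background, and no treatment is named. The bulk tissue mixes cell types, so fewer cells of a type and less RNA per cell cannot be told apart.

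Clusterin, also called apolipoprotein J, is a secreted glycoprotein that holds misfolded extracellular proteins in solution and travels on lipoprotein particles. Apolipoprotein E is the ligand through which many lipoprotein particles are taken up by receptors of the LDL receptor family. Lrp1 and Lrp2 (megalin) are giant endocytic receptors of that family, while Vldlr and Lrp8 (also known as ApoER2) are smaller members that also transmit the signal of the secreted protein reelin. Clusterin is cleared through Lrp2 and binds Vldlr and Lrp8, and loss of Lrp2 in mice is known to disturb septation of the outflow tract.

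The 6 genes lie apart in the genome and are protein coding. In mm10, Clu occupies chromosome 14 from 65968483 to 65981547 on the plus strand, Apoe chromosome 7 from 19696109 to 19699188 (minus), and Lrp1 chromosome 10 from 127538161 to 127621148 (minus). Lrp2 lies on chromosome 2 between 69424340 and 69586065 (minus), Lrp8 on chromosome 4 between 107802261 and 107876840 (plus), and Vldlr on chromosome 19 between 27216484 and 27254231 (plus). Lrp1 and Lrp8 overlap antisense RNA genes, and the strand setting of the counting is not given in the sources used here. The partner of Lrp1, Gm16217, held at most 1 read in any library, whereas Lrp8os2, a partner of Lrp8, held 52 to 217. How reads from stretches shared by Lrp8 and Lrp8os2 were counted is therefore not known.

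Promoters are shown because the deleted enhancer serves the gene of a DNA-binding factor: NKX2-5 and its relatives bind sites with the core AAGTG, or CACTT read on the other strand. RefSeq promoter windows of build GRCm38.p6, from 250 bases before to 50 bases after a transcript start, were matched for 5 of the 6 genes; Clu had no entry. The windows of Lrp1 (chr10:127621099-127621398, minus strand), Lrp2 (chr2:69585980-69586279, minus strand) and the upstream start of Vldlr (chr19:27216234-27216533, plus strand) are printed 5′ to 3′ on the strand of the gene. Capitals mark the core or, where it is present, the longer form TNAAGTG or CACTTNA, which contains the core.
Lrp1 promoter: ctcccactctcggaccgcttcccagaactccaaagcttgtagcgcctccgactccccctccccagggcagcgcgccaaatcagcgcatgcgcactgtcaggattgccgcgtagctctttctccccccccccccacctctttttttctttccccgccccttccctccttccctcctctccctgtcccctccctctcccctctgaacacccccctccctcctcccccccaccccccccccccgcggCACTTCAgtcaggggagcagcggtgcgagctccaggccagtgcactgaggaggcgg
Lrp2 promoter: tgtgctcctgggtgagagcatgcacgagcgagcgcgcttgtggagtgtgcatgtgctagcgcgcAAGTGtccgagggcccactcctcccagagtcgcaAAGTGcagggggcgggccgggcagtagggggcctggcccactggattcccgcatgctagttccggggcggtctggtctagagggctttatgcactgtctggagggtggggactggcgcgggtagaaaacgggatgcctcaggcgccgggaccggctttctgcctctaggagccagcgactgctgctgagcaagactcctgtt
Vldlr promoter: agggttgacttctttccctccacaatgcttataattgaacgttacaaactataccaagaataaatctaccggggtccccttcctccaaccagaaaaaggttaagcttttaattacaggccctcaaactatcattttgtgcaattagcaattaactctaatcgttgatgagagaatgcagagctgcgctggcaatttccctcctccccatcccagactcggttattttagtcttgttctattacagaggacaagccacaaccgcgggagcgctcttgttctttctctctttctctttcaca
The Lrp1 window held 1 match to the longer form, the Lrp2 window held 2 to the core and none to the longer form, and the Vldlr window held none. Of the windows not printed, 3 belong to Apoe (no match, 1 core, and 2 cores of which 1 is the longer form), 3 to Lrp8 (1 core, 1 core and none) and 1 to a second Vldlr start (none). The last 2 Apoe windows overlap and share 1 core site, which was counted in both. Among all 32851 windows of this length, 46.4% held the core and 11.5% the longer form. A match is a string of letters, not a measured binding site.

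Gene-assigned reads numbered 27707435 to 49094225 per library. Values are given as CPM, a gene's reads scaled to a common library total with edgeR's TMM factors. The number carried by each deposited library was read as a litter, which is an assumption: wild types 1 and 2 and deletions 1 and 2 formed the first litter, wild types 3 and 4 and deletions 3 and 4 the second, and deletion 5 carried a number of its own. Nkx2-5 ranged from 11.4 to 24.4 CPM in the deletion libraries and from 18.8 to 45.0 CPM in wild type, where wild type 1 held the lowest value and overlapped the deletion group. Deletion 2 stood apart in neuronal genes, with a summed level of 10 neuron and Schwann cell markers of 2815 CPM against 77.0 to 126 CPM elsewhere.

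Clu, the clusterin gene, was lower in every deletion library than in every wild-type library. The wild types 1 to 4 stood at 342, 419, 507 and 424 CPM. Deletions 1 to 5 stood at 264, 238, 283, 229 and 226 CPM. The deletion libraries lay close together and below the wild types, of which wild type 1 was the lowest. Wild type 1 also had the least Nkx2-5 of the wild types and the lowest heart muscle marker sum (6992 CPM). Among the deletion libraries, Nkx2-5 was highest in deletion 2 (24.4 CPM) and Clu in deletion 3 (283 CPM). A relation of Clu to the Nkx2-5 level was not tested. Wild type averaged 423 ± 67.4 CPM (SD, n = 4) against 248 ± 24.6 CPM (SD, n = 5) for the deletion, which is 58.6% of wild type, with a log2 fold change of -0.77 (SE 0.12, edgeR). Without wild type 1, whose Nkx2-5 level lay in the deletion range, it was -0.86 (SE 0.11). Of all 16522 genes tested, 0.974% were lower in the deletion with no overlap between the groups, and since this contrast chose Clu nothing is read from its place among them.

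The lower level of Clu was present in both litters. In the first, the wild-type and deletion means were 381 and 251 CPM, with the deletion at 65.9% of wild type. In the second they were 465 and 256 CPM, with the deletion at 54.9%. The log2 fold changes were -0.58 (SE 0.18) and -0.87 (SE 0.12). Since the genotypes did not overlap over all libraries, they could not overlap within a litter. The direction in each litter is therefore no separate result from the contrast that chose Clu. The difference between the log2 fold changes of the litters was tested as an interaction of genotype and litter over the 8 libraries of the shared litters. It was -0.26 (SE 0.23) for Clu, with an edgeR adjusted p of 0.821 over all genes.

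**Figure D1:**
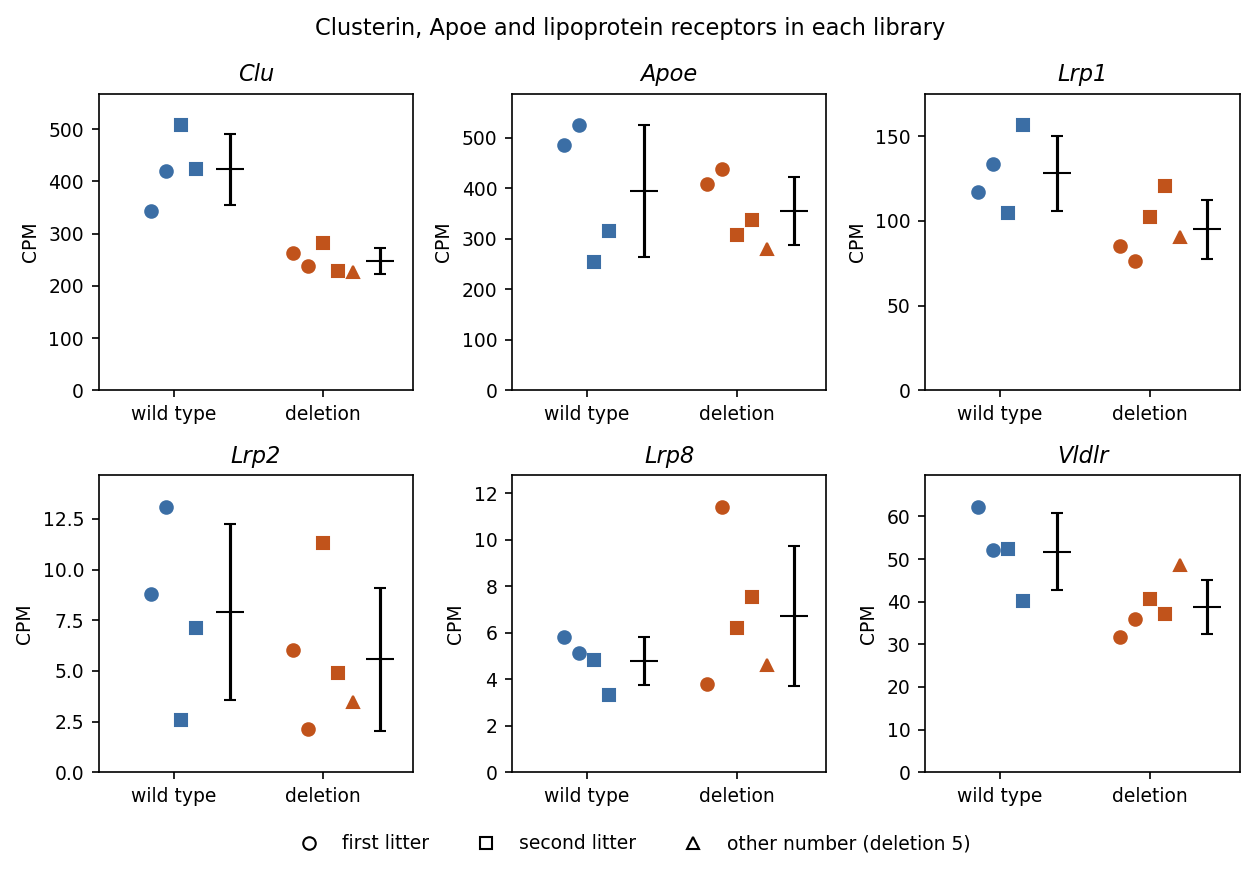
CPM of each of the 6 genes (y axis, from 0, a scale per panel) in each library, by genotype, with circles for the first litter, squares for the second and a triangle for deletion 5; black bars are the mean and SD of the group (n = 4 wild type, n = 5 deletion). Clu, which was chosen by its genotype difference, has deletion libraries at 226 to 283 CPM and wild types at 342 to 507 CPM. Apoe separates by litter.

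Other cell types' markers were measured beside Clu, and their part in its difference was not tested. The 6 epithelial markers summed to 72.1 to 87.5 CPM in wild type against 45.2 to 68.8 CPM in deletion libraries, with no overlap. Most of this came from the keratin genes Krt8 and Krt18, which heart muscle and mesothelium can also express. Nkx2-1 and Foxa2, which mark foregut epithelium, stayed under 1 CPM in all libraries. Of the 4 epithelial markers tested 2 were above 0, Epcam (log2 fold change 0.27) and Cdh1 (0.76), and 2 below, Krt8 (-0.99) and Krt18 (-0.41), with a median of -0.073. The 10 epicardium markers summed to 856 to 1332 CPM in wild type against 600.4 to 980 CPM in deletion libraries. The 8 heart muscle markers summed to 6992 to 16733 and 10254 to 14157 CPM, and 5 smooth muscle markers to 2448 to 2737 and 1458 to 2503 CPM. All of these overlapped between the genotypes. For heart muscle the overlap came from wild type 1 alone (6992 CPM). Wild types 2 to 4, at 16733, 14947 and 15476 CPM, lay above every deletion library. Median log2 fold changes were -0.55 for epicardium, -0.24 for heart muscle and -0.36 for smooth muscle. Above 0 were 2 of 10, 0 of 8 and 0 of 5 markers, where 49.4% of all genes tested were below 0. The heart muscle list includes Nkx2-5 itself (log2 fold change -1.05). Its enhancer was deleted, so its direction says nothing about heart muscle content. The other heart muscle markers ranged from -0.55 (Myh6) to -0.0097 (Myl7).

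Among the 5 partner genes, none passed in the genotype contrast, by edgeR or by DESeq2 (adjusted p of 0.05). Over all genes edgeR called 0 of 16522 (0.00%; 870 had an unadjusted p under 0.05), DESeq2 called 40 of 17757 (0.225%), and limma-voom 4. Without wild type 1 their edgeR log2 fold changes were -0.041 for Apoe, -0.47 for Lrp1, -0.45 for Lrp2, 0.60 for Lrp8 and -0.31 for Vldlr, with adjusted p from 0.827 to 0.983.

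Apoe, which encodes the ligand, had wild types at 486, 524, 255 and 316 CPM and deletions at 409, 438, 307, 338 and 280 CPM. The groups overlapped throughout, with both extremes in wild type. The means were 395 ± 130 CPM (SD, n = 4) and 354 ± 67.0 CPM (SD, n = 5), with a log2 fold change of -0.16 (SE 0.22, edgeR adjusted p = 0.948). Its sign depended on the litter, at -0.24 (SE 0.16) in the first and 0.18 (SE 0.11) in the second, with an interaction of 0.43 (SE 0.19, edgeR adjusted p = 0.621).

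Of the large endocytic receptors, Lrp1 had wild types at 117, 134, 105 and 156 CPM and deletions at 85.0, 76.3, 102, 121 and 90.6 CPM. Deletion 4 reached into the wild-type range, and the other 4 deletion libraries lay under the lowest wild type. The means were 128 ± 22.3 CPM (SD, n = 4) and 95.0 ± 17.2 CPM (SD, n = 5), with a log2 fold change of -0.43 (SE 0.15). The edgeR p was 0.0173 unadjusted and 0.896 adjusted. Lrp2 was scarce and scattered, with wild types at 8.79, 13.1, 2.59 and 7.12 CPM and deletions at 6.04, 2.13, 11.3, 4.88 and 3.45 CPM. Each genotype held libraries near the top and near the bottom of the range, and the lowest count was 61 reads. Its log2 fold change of -0.50 (SE 0.51, edgeR adjusted p = 0.940) combined -1.40 (SE 0.56) in the first litter with 0.74 (SE 0.52) in the second. The interaction was 2.15 (SE 0.92, edgeR adjusted p = 0.605).

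Of the reelin receptors, Vldlr had wild types at 62.2, 52.2, 52.3 and 40.1 CPM and deletions at 31.7, 35.8, 40.7, 37.1 and 48.5 CPM. Only deletions 3 and 5 lay above the lowest wild type. The means were 51.7 ± 9.04 CPM (SD, n = 4) and 38.7 ± 6.34 CPM (SD, n = 5), with a log2 fold change of -0.42 (SE 0.15). The edgeR p was 0.0194 unadjusted and 0.896 adjusted. Lrp8 had wild types at 5.81, 5.14, 4.82 and 3.34 CPM and deletions at 3.81, 11.4, 6.21, 7.55 and 4.60 CPM, with the highest value in deletion 2, the library rich in neuronal transcripts. Its log2 fold change was 0.49 (SE 0.33, edgeR adjusted p = 0.906), and 0.21 without deletion 2 (adjusted p = 0.941).

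The within-litter values of Lrp1 and Vldlr were of one sign. Lrp1 was at -0.62 (SE 0.16) in the first litter and -0.23 (SE 0.17) in the second, and Vldlr at -0.74 (SE 0.18) and -0.25 (SE 0.14). The interaction was 0.41 (SE 0.27) for Lrp1, 0.51 (SE 0.24) for Vldlr and 0.28 (SE 0.68) for Lrp8, with edgeR adjusted p of 0.753, 0.640 and 0.947. Thus 0 of the 6 genes passed for the interaction, where 0.0123% of 16303 genes tested did (2 genes by edgeR, and 1329 at an unadjusted p under 0.05).

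**Figure D2:**
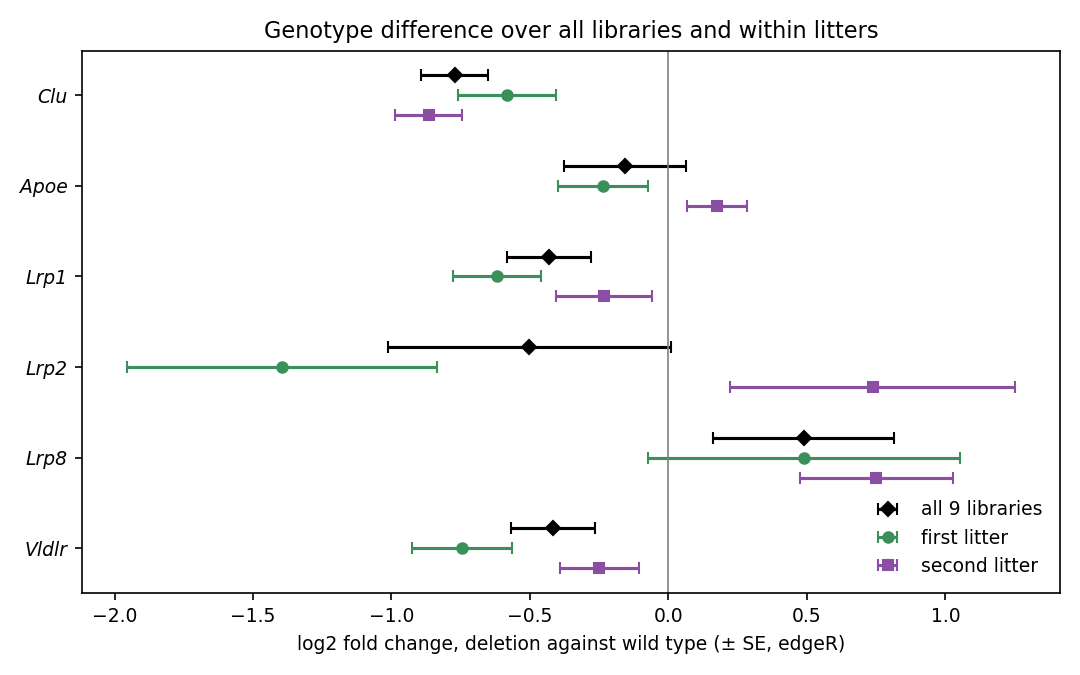
Log2 fold change, deletion against wild type, with its SE from edgeR (x axis) for the 6 genes, over all 9 libraries (n = 4 and 5) and inside each of the litters (n = 2 and 2). Clu lies below 0 in all 3 fits, from -0.58 to -0.87, a sign set by its non-overlapping groups. Lrp2 lies at -1.40 for the first litter and at 0.74 for the second.

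The comparison of litters does not use the contrast that chose Clu, since each litter held 2 libraries of each genotype. With genotype as a term, Apoe was lower in the second litter and was the only 1 of the 6 genes to pass. Its 4 libraries of the first litter stood at 409 to 524 CPM and the 4 of the second at 255 to 338 CPM, with no overlap; deletion 5, which was not in the fit, stood at 280 CPM. The means were 464 ± 51.0 CPM (SD, n = 4) and 304 ± 35.4 CPM (SD, n = 4), with a log2 difference of -0.61 (SE 0.12, edgeR adjusted p = 0.0175). Litters differed in many genes: 9.94% of 16303 tested passed, 4.35% as lower in the second litter, and 8.36% of 16522 were lower there with no overlap. The Apoe call was lost without wild type 3 (log2 difference -0.50, adjusted p = 0.0584), without wild type 4 (-0.62, 0.0625) and without deletion 3 (-0.63, 0.0606). Over all 11 alternatives the adjusted p ranged from 0.000869 to 0.0625.

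Clu did not pass between litters, with a log2 difference of 0.16 (SE 0.12, edgeR adjusted p = 0.432). Neither did Lrp1 (0.26, SE 0.15, adjusted p = 0.287), Lrp2 (-0.10, SE 0.61, 0.936), Lrp8 (-0.28, SE 0.33, 0.623) or Vldlr (-0.054, SE 0.14, 0.842). Apoe libraries thus separated by litter, as 8.36% of all genes did in the same direction. The separation of Clu libraries by genotype is what chose the gene, and it is no result to set beside that of Apoe.

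Macrophages are a known source of Apoe. The summed level of 7 macrophage markers was 150 to 288 CPM in the first litter and 56.6 to 102 CPM in the second, with no overlap, and 85.0 CPM in deletion 5. All 7 markers were detected in every library; Csf1r, a receptor that defines these cells, ranged from 18.1 to 95.5 CPM. Apoc1, the gene next to Apoe on chromosome 7 and also a macrophage lipoprotein gene, had a log2 difference between litters of -1.41 (edgeR adjusted p = 0.0717). Tomm40, the nearest gene on the other side, had one of 0.22 (adjusted p = 0.191). The liver, a major source of plasma apolipoproteins, was checked in the same way. Its 6 markers summed to 2.70 to 9.71 CPM in the first litter and 0.724 to 2.10 CPM in the second, again with no overlap. These levels were near the floor, and the markers differed. Alb, the albumin gene, was at 0 in the 4 libraries of the second litter, and Afp did not overlap either. Ahsg (0.334 to 2.23 CPM in the first, 0 to 1.46 CPM in the second) and Ttr (0.314 to 1.75 and 0.436 to 0.847 CPM) overlapped. Fgb and Serpina1a stayed under 1 CPM in all libraries. The part of the macrophage and liver markers in the Apoe difference was not tested.

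**Figure D3:**
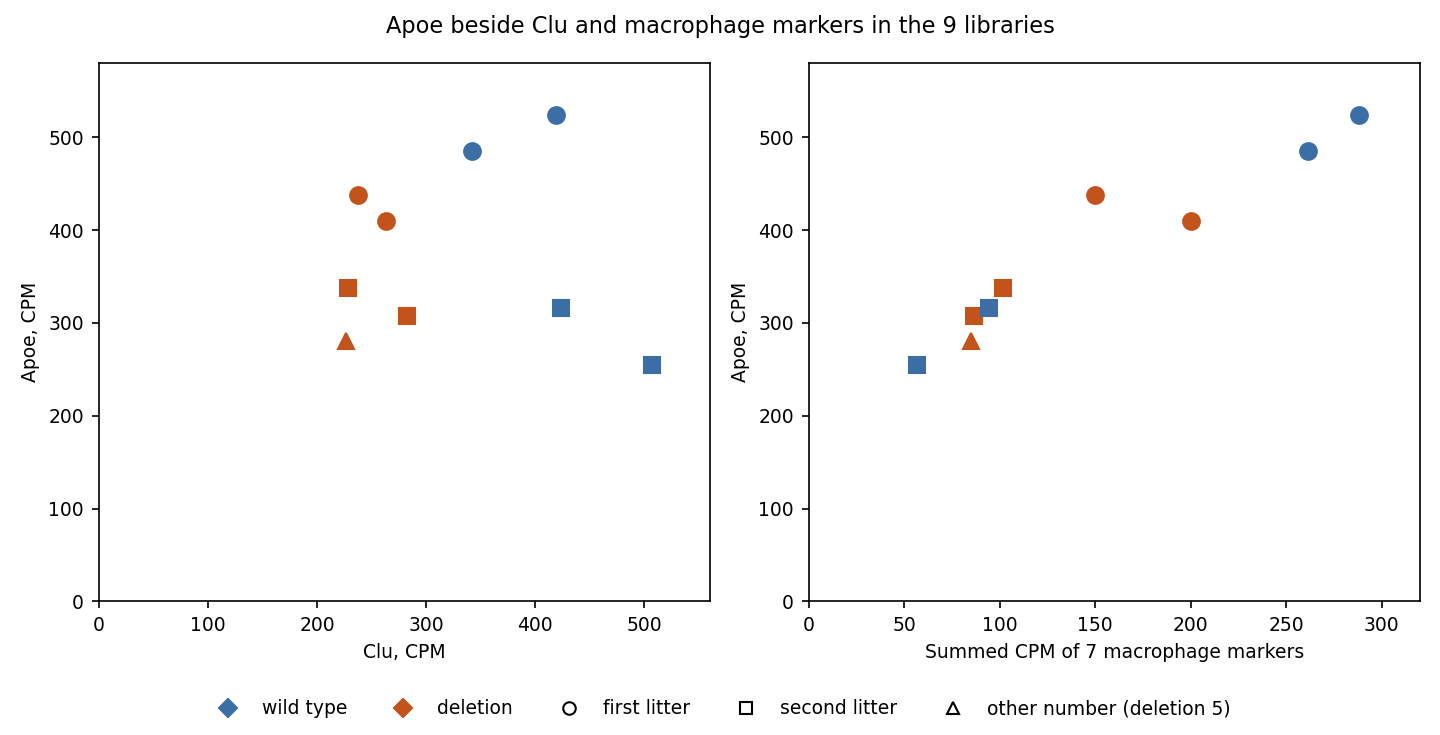
Apoe in CPM (y axes) against Clu in CPM (left) and against the summed CPM of 7 macrophage markers (right) in the 9 libraries, with colour for genotype and shape for litter. First-litter libraries lie at 409 CPM of Apoe or more with marker sums of 150 CPM or more, and all others at 338 CPM or less with sums of 102 CPM or less.

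Levels were also compared between genes per kb of merged exon. Apoe led with 174 ± 44.5 CPM per kb (SD over 9 libraries), followed by Clu with 94.8 ± 29.9. The receptors were lower, with 6.19 ± 1.43 for Lrp1, 4.42 ± 0.980 for Vldlr, 0.557 ± 0.232 for Lrp8 and 0.395 ± 0.231 for Lrp2. Apoe exceeded Clu per kb in 8 of 9 libraries, wild type 3 being the exception. Clu exceeded Lrp1, Lrp1 exceeded Vldlr and Vldlr exceeded Lrp8 in 9 of 9, while Lrp8 exceeded Lrp2 in only 6 of 9. The ligand transcripts were thus far above those of their receptors in this tissue, with Clu at 15.3 times Lrp1 in the mean level per kb.

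The nearest tested genes beside Clu were also read. Scara3, 14.5 kb away, had means of 59.5 CPM (wild type) and 63.5 CPM (deletion), with overlapping groups and a log2 fold change of 0.093 (SE 0.12, edgeR adjusted p = 0.948). Gulo, 5.2 kb on the other side, was near the floor at 0.334 and 0.232 CPM.

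Genes most like Clu were ranked by the root mean square difference of centred log2 CPM over the 9 libraries, as a description that includes the genotype difference. The 6 closest were Ap5b1, a subunit of an adaptor complex of endosomes (0.15), Brip1, a DNA repair helicase (0.19), Hspb3, a small heat shock protein gene of muscle (0.19), Il1rap, the interleukin-1 receptor accessory protein gene (0.19), Fam161b (0.22) and Itga3, an integrin subunit gene (0.22). The median over all genes was 0.51 and a gene with no variation would be at 0.41. Lrp1 (0.34) ranked 443 and Vldlr (0.36) ranked 952 of 16522 genes, while Apoe (0.55), Lrp8 (0.78) and Lrp2 (0.86) lay beyond a gene with no variation.

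Wider lists of lipoprotein and clusterin biology were described in the genotype contrast, and 0 of their members passed edgeR over all genes. All 14 LDL receptor family genes were tested, with 7 above and 7 below 0 and a median log2 fold change of -0.056, beside a median of 0.0029 over all genes. Besides the receptors above, the family included Lrp12 at 0.27 (SE 0.14, edgeR adjusted p = 0.896). Lrp11 was at 0.94 (SE 0.59, edgeR adjusted p = 0.902) and, without deletion 2, at -0.056.

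Only 5 of 15 apolipoprotein genes were expressed enough to be tested, and plasma apolipoprotein genes such as Apoa1 and Apob did not pass the count filter. Their median was -0.16. The 2 with the smallest p, Apool (0.28) and Apoo (0.20), encode proteins of the inner mitochondrial membrane despite their names. Of 13 tested genes for receptor adaptors and handling, 10 were below 0, beside 49.4% of all genes tested, with a median of -0.063. The list included Reln, which encodes the reelin ligand of Vldlr and Lrp8 (log2 fold change -0.77, SE 0.31, edgeR adjusted p = 0.896).

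Of 16 sterol and lipid transport genes, 8 were above 0 and the median was -0.026. Pltp, the phospholipid transfer protein gene, had wild types at 15.7, 17.7, 12.2 and 12.9 CPM and deletions at 12.2, 11.0, 7.91, 7.59 and 10.7 CPM. Its groups did not overlap, though wild type 3 and deletion 1 nearly met, and its log2 fold change was -0.57 (SE 0.19, edgeR adjusted p = 0.896). Hmgcs1, an enzyme gene of cholesterol synthesis, was at 0.37 (SE 0.21, edgeR adjusted p = 0.900) and at 0.12 without deletion 2. Clusterin also restrains the terminal complement complex. Of 6 tested complement genes 5 were below 0, beside 49.4% of all genes tested, with a median of -0.092. That median was -0.29 without deletion 2 (5 genes tested) and 0.063 with the replicate number as a block. C3, the central complement component, averaged 3.90 ± 0.832 CPM in wild type (SD, n = 4) against 2.03 ± 0.516 CPM (SD, n = 5), with deletion 5 just above wild type 2 (log2 fold change -0.94, SE 0.28, edgeR adjusted p = 0.896). C8g, part of the terminal complex, was at -0.39 (SE 0.27). The 10 chaperone and heat shock genes split evenly around 0, with a median of -0.0098; Hspb1 was at -0.36 (SE 0.14) and Hspa1b at 0.56 (SE 0.35). Hspa1b has a near-identical copy, Hspa1a, so its reads are uncertain.

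Between litters, several genes of lipid handling passed together with Apoe, all lower in the second: Trem2, a lipid receptor of macrophages (log2 difference -1.71, SE 0.30, edgeR adjusted p = 0.0129), Abca1, the cholesterol exporter gene (-0.66, SE 0.14, 0.0218), Lpl, lipoprotein lipase (-1.11, SE 0.27, 0.0390), and Pltp (-0.50, SE 0.13, 0.0449). Hsf1, the heat shock regulator (0.39, SE 0.088, 0.0294), and Hspa1b (0.96, SE 0.23, 0.0355) were higher. The lists held 8 calls among the 64 genes tested, beside 9.94% over all genes; of the 14 LDL receptor family genes 0 passed. The macrophage and liver marker sums were lower in the second litter too, and their part in these differences was not tested.

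**Figure D4:**
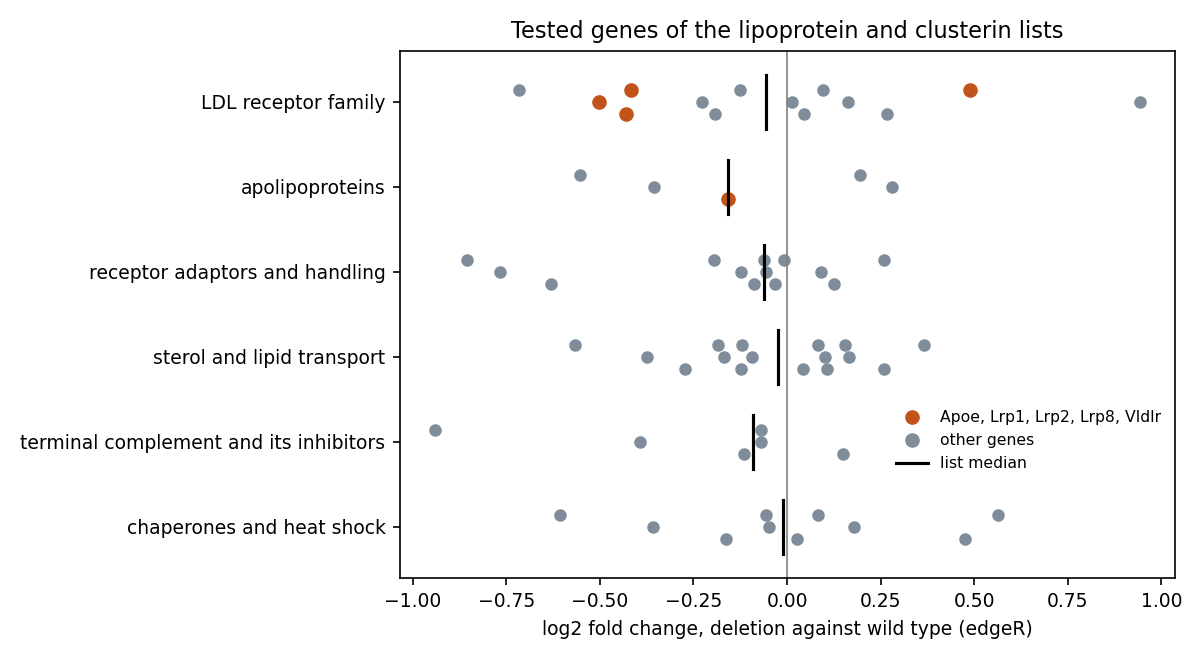
Log2 fold change, deletion against wild type (x axis), of each tested gene in the 6 lists, with Apoe, Lrp1, Lrp2, Lrp8 and Vldlr in orange and the list median as a black line. Medians lie between -0.16 and -0.0098, and 0 of the genes passed edgeR over all genes.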

How the data were processed

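For each library the authors deposited a table of unnormalized read counts by gene symbol. The submitters' processing notes name mm10, HTSeq 0.6.0, STAR 2.5.0c, DESeq2 and Picard, with no order. Per the labels' protocols, RNA was column-purified and libraries came from a low-input SMART-Seq kit. Rows without a gene name (20.6% to 23.5% of reads) were left out.

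Groups came from the sample titles, litters from a number in the file names. Counts were tested with edgeR 4.0.16 (R 4.3.3; quasi-likelihood, robust, TMM, filterByExpr with a minimum count of 10, two-sided, Benjamini-Hochberg over all genes, threshold 0.05): genotype over 9 libraries, litter and interaction over 8. DESeq2 1.42.0 and limma 3.58.1 were alternatives. The labels do not say that samples are separate embryos, so p-values measure the spread between samples. Members and lists were chosen with earlier results of these data known. The genes named are the members, the 2 of each list with the smallest genotype p, list genes called, and the 6 most like Clu; some results for single genes are not reported here. No group pair agreed within sampling noise. The procedure was tested on simulated counts. GENCODE M21 gave coordinates and exon lengths.

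Same-numbered libraries of the 2 genotypes deviated together (correlations 0.242, 0.137, 0.227 and 0.176 for numbers 1 to 4), each above 0.1. The titles' numbers were therefore taken to pair samples in an alternative fit, with the replicate number as a block. The genotype fit over 9 libraries had no pairing and no litter term. Different numbers of one litter correlated about as well (0.150 to 0.236), and different litters negatively (-0.258 to -0.111), so the pairing cannot be told apart from the litter. Deletion 5 correlated with wild types 3 (0.177) and 4 (0.197) and negatively with 1 and 2 (-0.206 and -0.125).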

Additional observations from a re-analysis of the deposited data

Results flagged for a closer look

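In deletion 2, Lrp11 stood at 62.1 CPM and the other 4 deletion libraries at 9.48 to 12.0 CPM, a gap wide enough to set this library apart from its group. Hmgcs1 stood at 347 CPM in deletion 2 and at 166 to 195 CPM in the other 4. Of 36 sets (18 genes in 2 groups) these 2 met that criterion, which chance meets in about 1 set of 20. The neuron and Schwann cell markers, at 2815 CPM in the same library against 77.0 to 126 CPM elsewhere, moved with both genes, and their part was not tested.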

How the results depend on the processing

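Clu was lower in the deletion in all 19 alternatives, with a log2 fold change from -0.92 to -0.58. Since its groups do not overlap in the contrast that chose it, these fits could hardly turn the sign, and only the size is read for Clu. The lower end of its size was -0.58 (SE 0.18) within the first litter. It differed from the value over all libraries by barely more than the SD of single libraries within a group (0.185 in log2 CPM). That SD is not the error of a fold change within a litter, and the interaction of Clu with litter did not pass. Leaving out each library gave -0.86 to -0.66. With the replicate block Clu was at -0.73, and the block changed no call. The partners with the block were Apoe -0.035 (SE 0.12), Lrp1 -0.42 (SE 0.13), Lrp2 -0.43 (SE 0.72), Lrp8 0.53 (SE 0.35) and Vldlr -0.50 (SE 0.15). Their edgeR adjusted p ranged from 0.899 to 0.977. Lrp1 (-0.62 to -0.23), Vldlr (-0.74 to -0.13) and Lrp8 (0.21 to 0.75) kept their signs in all 19. Apoe turned positive with limma-voom (0.062), within the second litter (0.18, or 0.11 with deletion 5) and at the upper end of leaving out each library (-0.31 to 0.0090). Lrp2 turned positive with limma-voom (0.044) and within the second litter (0.74, or 0.43 with deletion 5), and stood at -0.93 to -0.15 when each library was left out. Calls for genotype numbered 40 with DESeq2, 4 with limma-voom and 6 within the second litter, and 0 to 1 when each library was left out (1 without wild type 3).

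Between litters, leaving out each library gave -0.67 to -0.50 for Apoe, -0.59 to 0.38 for Lrp2, -0.55 to 0.063 for Lrp8 and -0.14 to 0.075 for Vldlr; Vldlr was at 0.030 with deletion 5 added to the second litter. Litter calls numbered 346 to 1734 in these fits, the fewest without wild type 3 (346), deletion 3 (385) and wild type 4 (411), and also fewer without deletion 4 (768) and wild type 1 (984). Interaction calls numbered 10 with deletion 5 and 0 to 241 when each library was left out, 241 without deletion 1. The Lrp8 interaction ranged from -0.31 to 1.28. Causes were not tested. The choices made after seeing the data were list medians without deletion 2 and with the block, both with 0 calls. Without deletion 2 they were -0.092 (LDL receptor family), -0.24 (apolipoproteins), -0.060 (receptor adaptors), -0.044 (sterol transport), -0.29 (complement) and 0.035 (chaperones, sign turned). With the block they were 0.0010, -0.035, -0.036, 0.020, 0.063 and 0.0011 in that order, so that 4 of the 6 turned sign. With few reads, as few as 61 for Lrp2, counting error adds to the spread.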

Other observations

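Summed markers of 5 further cell types overlapped between the genotypes. Endothelial markers summed to 496 to 615 CPM in wild type against 523 to 643 CPM in deletion libraries (4 of 5 above 0, median log2 fold change 0.23), and neural crest and cushion mesenchyme markers to 598 to 1973 against 1268 to 1857 CPM (5 of 5 above 0, median 0.39). Erythroid markers summed to 1331 to 7356 against 1380 to 4180 CPM (0 of 5, median -1.09), and liver markers to 0.872 to 9.71 against 0.724 to 4.96 CPM (1 of 3 tested, median -0.67). Macrophage markers summed to 56.6 to 288 against 85.0 to 200.1 CPM (0 of 7, median -0.47). Of all genes tested, 49.4% were below 0.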
